A study of Mus musculus with 24 samples.

Results

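The cells described here are 19 single erythroid progenitors of mouse fetal liver, compared by whether they held transcripts of Itga2b, the gene for the CD41 antigen of megakaryocytes and platelets. They come from 24 C57/Bl6J cells taken at embryonic day 14.5, whose label is burst-forming unit-erythroid (BFU-E), a progenitor stage well before the red cell. Before sorting on CD117, CD71 and CD24, cells bearing CD41, Ter119, Sca-1, CD16/32 or lymphoid and myeloid antigens had been depleted with magnetic beads. No genotype, treatment or embryo is named for any cell, so the 24 cells are 1 group and the sides compared below differ in no labelled condition. Each cell was profiled by Smart-seq2, a plate method that reads polyadenylated RNA along its length.

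Cells were kept when Klf1, the erythroid Krüppel-like factor, reached 10 CPM, read counts scaled by the total of the cell, which left 19 of 24 cells. A cell with 5 or more Itga2b counts was placed on the detected side, which held 14 cells, and a cell with fewer on the undetected side, which held 5 cells (cells 7, 11, 14, 15 and 20, the order used for their values throughout). The sides were thus chosen by measured values of the same libraries, and everything below describes these cells without a test. Itga2b (ENSMUSG00000034664, GRCm38 chromosome 11, 102453297 to 102470122, minus strand) ran from 52.7 to 542 CPM with a median of 165 on the detected side, and stood at 1.24, 0, 0, 1.19 and 0 CPM in the undetected cells. The cell nearest the threshold from above, cell 21, held 88 Itga2b counts, and the highest undetected cells, 7 and 15, held 2 counts each, so no kept cell lay near the limit of 5. For Klf1, the kept cell with the lowest level was cell 10 at 32.4 CPM, and the highest cell left out was cell 24 at 8.12 CPM. The 5 cells left out held 0 to 29 Itga2b counts, and 2 of them had 5 or more.

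Itga2b encodes integrin αIIb, which pairs with integrin β3, the product of Itgb3, to form the fibrinogen receptor of platelets. Megakaryocytes and red cells descend from shared progenitors and use the transcription factors GATA1 and TAL1, while the ETS factor FLI1 serves the megakaryocyte branch and KLF1 the erythroid one. CD41 is also present on early blood progenitors of the embryo, and a transcript says nothing of the protein, for which these cells had been depleted.

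GATA and ETS factors bind short motifs in the promoters of megakaryocyte and erythroid genes, so 4 promoters are shown, each as the 130 bases before the start of its RefSeq gene on GRCm38.p6, with matches in capitals. For GATA factors the letters AGATAA were searched, with TGATAA as the other accepted form. For ETS factors the letters AGGAAG were searched. Both strands were read, so a GATA match can also appear as TTATCT and an ETS match as CTTCCT, and no match overlaps another. Itga2b defines the sides, and Gp5, Rhd and Kel, described below, were picked after their values were seen.
Itga2b, chr11:102469884-102470013 minus strand: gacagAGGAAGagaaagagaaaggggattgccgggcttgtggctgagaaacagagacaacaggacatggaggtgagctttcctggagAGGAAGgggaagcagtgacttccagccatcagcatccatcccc
Gp5, chr16:30310782-30310911, minus strand: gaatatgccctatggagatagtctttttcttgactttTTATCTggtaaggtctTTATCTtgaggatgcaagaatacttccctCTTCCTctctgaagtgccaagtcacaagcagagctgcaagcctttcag
Rhd, chr4:134864406-134864535, plus strand: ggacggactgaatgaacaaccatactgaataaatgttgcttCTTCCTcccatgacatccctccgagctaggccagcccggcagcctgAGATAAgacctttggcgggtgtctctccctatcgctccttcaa
Kel, chr6:41704326-41704455, minus strand: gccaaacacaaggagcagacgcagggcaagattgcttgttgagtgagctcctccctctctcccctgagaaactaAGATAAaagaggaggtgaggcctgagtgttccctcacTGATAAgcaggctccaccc
The Itga2b window held 2 ETS matches and the Kel window 2 GATA matches, whereas the Gp5 and Rhd windows held both kinds. The RefSeq starts differ from those of GENCODE M21, which gave the gene coordinates elsewhere, so the Itga2b window lies inside the gene span given above. Over 32851 RefSeq promoter windows of this length, 8.30% held a GATA match and 17.5% an ETS match. A match is a string of letters, not a measured binding site.

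Depth differed little between the sides. Total counts ran from 1135880 to 2155010 (median 1617282) in the detected cells and from 1274153 to 1681590 (median 1607814) in the undetected cells. The median number of genes with 5 or more counts was 6005.5 and 6367. No embryo is named, but sex-linked transcripts differed: Xist, the transcript of the inactive X chromosome, reached 5 counts in 8 of the 14 detected cells and in 5 of 5 undetected cells, and the 6 detected cells without it held Y-linked transcripts instead. Embryos of both sexes thus contributed cells. The comparison within the 13 Xist-positive cells, 8 against 5, was added after this was seen and is given beside the results it alters.

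The comparison covered 7672 genes with 5 or more counts in at least 6 of the 19 kept cells, Itga2b left out. The difference of a gene is its mean log2(CPM + 1) over the detected cells minus that over the undetected cells, and a gene was called at an absolute difference of 2. By this rule 305 genes (3.98%) were higher and 491 (6.40%) lower on the detected side, and the median difference of all genes compared was −0.18. In any omission of a single cell, 166 of the higher and 245 of the lower genes stayed called. A gene present only in the 5 undetected cells cannot pass a filter of 6 cells, while one present only in detected cells can, and 80 of the 305 higher genes had no undetected cell with 5 counts. Complete separation was rare. The lowest detected cell lay above the highest undetected cell for 1 gene (0.0130%), and the reverse held for 3 genes (0.0391%).

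Platelet surface genes other than Itga2b were present in many detected cells, in part and not as a complete set. Of 20 genes of platelet receptors and surface proteins, 6 passed the filter, 4 of them were called higher (against 3.98% of all genes compared) and 0 lower, and their median difference was 2.17. Gp5, a subunit of the platelet von Willebrand factor receptor, ran from 0 to 306 CPM (median 55.4) in the detected cells and stood at 0, 0, 45.5, 0 and 37.7 CPM in the undetected cells. With 9 of 14 and 2 of 5 cells positive, the sides overlapped, and the difference of 2.06 became 1.02 in Xist-positive cells. Treml1, a receptor stored in platelet granules, ran from 0 to 116 CPM (median 23.4) against 0.622, 0, 0, 31.5 and 0 CPM, a difference of 2.27. Cd9, a tetraspanin abundant on platelets, ran from 0 to 136 CPM (median 36.0) against 0, 0.729, 0, 35.1 and 0 CPM, a difference of 2.44. Both were present in 9 of 14 detected cells and in 1 undetected cell, cell 15, and both remained above 2 in the Xist-positive cells. F2r, the thrombin receptor PAR1, was the most widely expressed of the group, in every kept cell, at 86.4 to 786 CPM (median 232) against 106, 6.56, 241, 236 and 71.7 CPM. Its difference of 1.64 was not called and rested largely on cell 11, without which it was 0.79. Gp9, a partner of the same receptor as Gp5, differed by 0.68, with 5 of 14 and 1 of 5 cells positive. Of the genes called, Cd9 held its call without any single cell, whereas Gp5 dropped below 2 in 11 of the 19 omissions, to 1.52 without cell 7, and Treml1 in 3, to 1.99 without cell 11.

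The partner that αIIb needs was not seen. Itgb3 had 0 counts in all 19 kept cells, as did Selp and Gp6, the genes of P-selectin and the platelet collagen receptor. Gp1ba, the ligand-binding chain of the von Willebrand factor receptor, was found in 4 of 14 detected cells, at most at 42.7 CPM, and in 0 of 5 undetected cells. A count of 0 allows up to 3 counts in each cell, which is 1.39 to 2.64 CPM in the kept cells.

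**Figure D1:**
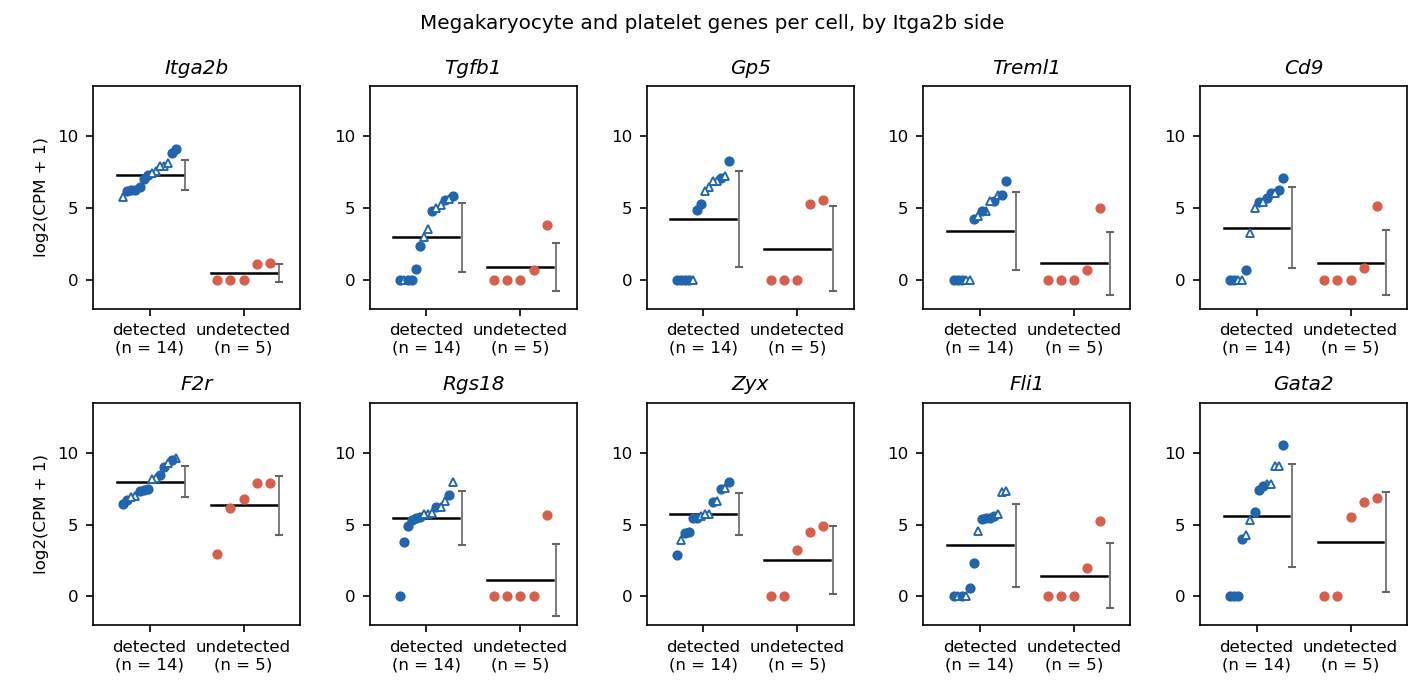
Level of Itga2b and 9 megakaryocyte genes in each kept cell as log2(CPM + 1), 14 Itga2b-detected and 5 undetected cells. Filled circles are cells with 5 or more Xist counts, open triangles cells with fewer, lines are means and bars SD over cells. Gp5 is split into cells at 0 and cells up to 306 CPM on the detected side, while Rgs18 is above 0 in 13 of 14 detected cells and 1 of 5 undetected cells.

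Among the proteins of platelet granules and of the platelet cytoskeleton, 10 of 29 genes passed the filter, with a median difference of 1.56. Of the 10, 3 were called higher and 0 lower (against 3.98% and 6.40% of all genes compared). Rgs18, a regulator of G-protein signalling abundant in megakaryocytes and platelets, had the largest difference of the 16 platelet genes compared, 4.32. It ran from 0 to 249 CPM (median 52.7) in the detected cells, of which 13 of 14 were positive, and stood at 0, 0, 50.2, 0 and 0 CPM in the undetected cells. Cell 14 alone carried it on that side, and without cell 14 the difference was 5.45. Zyx, a focal adhesion protein, was present in 14 of 14 detected cells at 6.21 to 246 CPM (median 49.5), and stood at 0, 21.1, 29.0, 0 and 8.50 CPM in the undetected cells, a difference of 3.18. Tgfb1, the gene of a growth factor that platelets store, ran from 0 to 55.6 CPM (median 8.81) against 0, 13.1, 0, 0 and 0.607 CPM, a difference of 2.07. Rgs18 and Zyx kept their calls in Xist-positive cells, at 3.64 and 3.06, and in every omission of a cell, while Tgfb1 had 1.5 in Xist-positive cells and dropped below 2 in 9 of the 19 omissions, to 1.85 without cell 7. With cells 7 and 15, at 2 Itga2b counts each, moved to the detected side, Zyx differed by 0.78.

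The uncalled members of this group differed by 1.89 for Ltbp1, which binds latent TGF-β, 1.85 for Flna, an actin crosslinker, 1.26 for Plek, a protein kinase C substrate of platelets, 0.90 for Myh9, a non-muscle myosin, and 0.35 for Lat, a signalling adaptor. Rap1b, the small GTPase that activates αIIbβ3, and Vcl, the adhesion protein vinculin, went the other way at −0.69 and −0.64. Defining granule and late megakaryocyte genes were at 0: Pf4, Ppbp, Thbs1 and Tubb1 had 0 counts in all 19 kept cells, and Vwf was in 2 of 14 detected and 2 of 5 undetected cells. Of the 49 genes of both platelet lists, 15 were at 0 in every kept cell. Over both lists, 7 of the 16 genes that passed the filter were called higher and 0 lower, with a median difference of 1.87. Among all genes compared, 3.98% were called higher and 6.40% lower. In the Xist-positive cells 4 of the 16 were called higher (against 4.63% of all genes compared there) and the median was 1.42. The filter of 6 cells can admit a platelet gene through the detected side alone, but not through the 5 undetected cells alone. With no filter on low counts, 7 of 34 platelet genes were called higher and 0 lower, with a median of 0.99. In that setting 2.18% of all genes compared were called higher and 3.85% lower.

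Summed over the 49 genes, without Itga2b, the platelet lists took 380 to 3219 CPM (median 1143) in the detected cells and 409, 399.5, 954, 585 and 610 CPM in the undetected cells. The sides overlapped at the low end, since cells 13, 17 and 21 had 400.3, 380 and 523 CPM. Cells 12, 10 and 16 stood highest at 3219, 2886 and 2874 CPM. In summed G2 and M phase genes, cells 12 and 16 were also the highest kept cells, at 9041 and 11201 CPM. Cell 10 was the lowest in those genes, at 1739 CPM. The number of platelet genes with 5 or more counts was 6 to 29 (median 12.5) against 7, 8, 8, 5 and 12. Cell 16, with 29, also had the most genes detected of any cell, 7349. Without cells 12 and 16, which had the most platelet genes, 4 of 16 genes were called higher and the median difference was 1.51. In that setting 3.53% of all genes compared were called higher. Among the 14 detected cells, Itga2b and the platelet sum had a Spearman rho of 0.64 and a Pearson r of 0.66, and Itga2b and the number of platelet genes detected a rho of 0.19 and an r of 0.36. These coefficients describe 14 cells of 1 group, and Itga2b and the platelet sum are scaled by the same cell total. Platelet transcripts were not confined to cells with Itga2b: the 5 cells left out for low Klf1 had platelet sums of 1041 to 2708 CPM, all above the undetected cells, while 3 of them held under 5 Itga2b counts. Those cells also carried 5579 to 15880 CPM of a myeloid list, against 356 to 3033 CPM in the detected and 198 to 1879 CPM in the undetected cells.

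**Figure D2:**
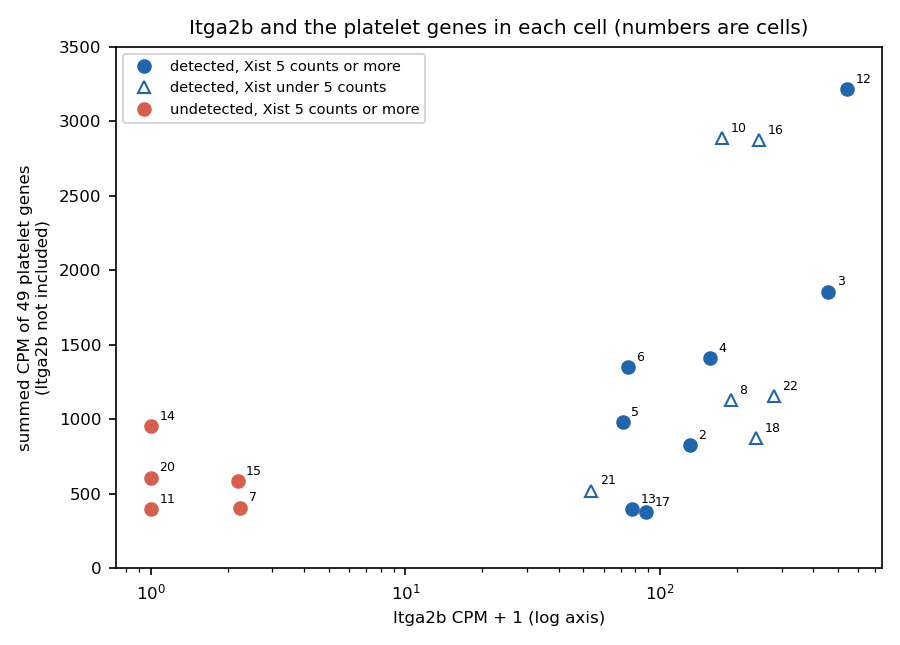
Summed CPM of 49 platelet genes against Itga2b CPM + 1 (log axis) in each kept cell, numbered by cell. The 5 undetected cells lie between 399.5 and 954 CPM, and the 14 detected cells spread from 380 to 3219 CPM, with Xist-positive and Xist-negative cells at both low and high sums.

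Regulators of the megakaryocyte branch were called about as often as all genes compared. Of 22 transcription factors listed, 17 passed the filter, 1 was called higher and 1 lower (against 3.98% and 6.40% of all genes), and the median difference was 0.34. Fli1, the ETS factor of megakaryocytes, ran from 0 to 164 CPM (median 31.4) in the detected cells and stood at 0, 0, 36.1, 2.97 and 0 CPM in the undetected cells. It was present in 9 of 14 and 2 of 5 cells, with a difference of 2.11, or 1.67 in Xist-positive cells, and it dropped below 2 in 10 of the 19 omissions of a cell, to 1.75 without cell 7. Gata2, a factor of stem cells, megakaryocytes and mast cells, ran from 0 to 1487 CPM (median 112) against 0, 0, 114, 44.6 and 94.2 CPM, a difference of 1.84. Meis1, a homeobox cofactor, differed by 1.81 and Mef2c, a MADS-box factor of megakaryocytes, by 1.5. Gata1 was alike on both sides, at 188 to 598 CPM (median 387) against 350, 419, 285, 252 and 562 CPM, a difference of 0.06. Runx1 differed by 0.21, and Nfe2, which drives platelet release, by 0.64. Tal1, which works with GATA1 in both branches, was the gene called lower: it ran from 0 to 138 CPM (median 20.2) in the detected cells and stood at 94.5, 35.7, 133, 118 and 72.9 CPM in the undetected cells, a difference of −2.47. Other haematopoietic factors below the call in the same direction were Lyl1 at −1.5, Zfpm1, which encodes FOG1, at −1.09 and Gfi1b at −0.82. Leaving out cell 14 took the list median to −0.02.

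Integrins other than αIIb were mixed. Of 26 genes of integrins and their activation, 15 passed the filter, with a median difference of 0.24. Of the 15, 3 were called higher and 0 lower (against 3.98% and 6.40% of all genes compared). Itgal, the αL chain of the leukocyte integrin LFA-1, ran from 0 to 127 CPM (median 58.1) against 0.622, 0, 39.2, 0 and 0 CPM, a difference of 3.23. The kinases Lyn and Syk, which act downstream of integrins and other receptors, differed by 2.81 and 2.74, and Syk reached 5 counts in 8 of 14 detected cells and 0 of 5 undetected cells. All 3 stayed above 2 in Xist-positive cells. Fermt3, the kindlin that activates αIIbβ3, was present in every kept cell at 86.3 to 1648 CPM (median 777) against 424, 322, 308, 452 and 272 CPM, a difference of 0.95 with the sides overlapping. The chains shared by most blood progenitors hardly differed, at 0.24 for Itgb1 and 0.03 for Itga4.

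Erythroid maturation genes gave the opposite picture. Of 34 genes listed, 25 passed the filter, 1 was called higher and 9 lower (against 6.40% of all genes compared), and the median difference was −1.23. The undetected cells held 23 to 24 of these genes at 5 or more counts, while the detected cells held 9 to 25 (median 17). Rhd, the Rh blood group protein of the red cell membrane, had the largest difference, −4.60. It ran from 0 to 101 CPM (median 1.10) in the detected cells, with 4 of 14 positive, and stood at 102, 156, 62.8, 162 and 196 CPM in the undetected cells. Cell 14, at 62.8 CPM, was the undetected cell that fell among the positive detected cells. Tspo2, an erythroid member of the translocator protein family, ran from 0 to 192 CPM (median 1.01) against 148, 35.7, 54.9, 52.3 and 99.6 CPM, a difference of −3.24. Kel, the Kell blood group protein, ran from 0 to 157 CPM (median 12.9) against 116, 29.9, 29.8, 86.8 and 89.9 CPM, a difference of −2.39.

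Other genes called lower were Tnfaip2 at −3.18, Ctse, a protease of erythroid cells, at −2.93, Hba-a1, an α-globin, at −2.21, Cd24a, an antigen of the sort, at −2.13, and Rhag, the partner of the Rh proteins, at −2.0. Hba-a1 has a near-identical copy, Hba-a2, so its counts are uncertain, and it did not exceed 30.4 CPM in any kept cell. Of the 9 genes called lower, 8 were present in a larger share of the Xist-positive than of the Xist-negative detected cells. Rhag was found in 6 of 8 and 2 of 6 of them, and Tspo2 in 5 of 8 and 1 of 6, while Ctse went the other way at 4 of 8 and 4 of 6. This tally of shares was not made over all genes compared, so no conclusion is drawn from the 8 of 9. In the Xist-positive cells 5 maturation genes were called lower, among them Rhd at −4.21 and Tspo2 at −2.31, and the median was −0.63. Of all genes compared in those cells, 7.87% were called lower, and their median was −0.17. There Kel differed by −1.82, Hba-a1 by −1.71, Cd24a by −0.94 and Rhag by −0.63, all short of the call. No embryo is named, so the embryo and the Itga2b side cannot be told apart. Of the 9 genes, 6 stayed called without any single cell, and Cd24a, Hba-a1 and Rhag did not, at −1.47, −1.83 and −1.59 in the omission that moved them most. Without cell 10, the kept cell lowest in Klf1, 7 maturation genes were called lower (against 6.41% of all genes compared) and the median was −0.76. With the 5 Klf1-low cells added, 3 were called lower and 3 higher, and the median turned to 0.26. In that setting 3.42% of all genes compared were called lower and 2.73% higher.

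**Figure D3:**
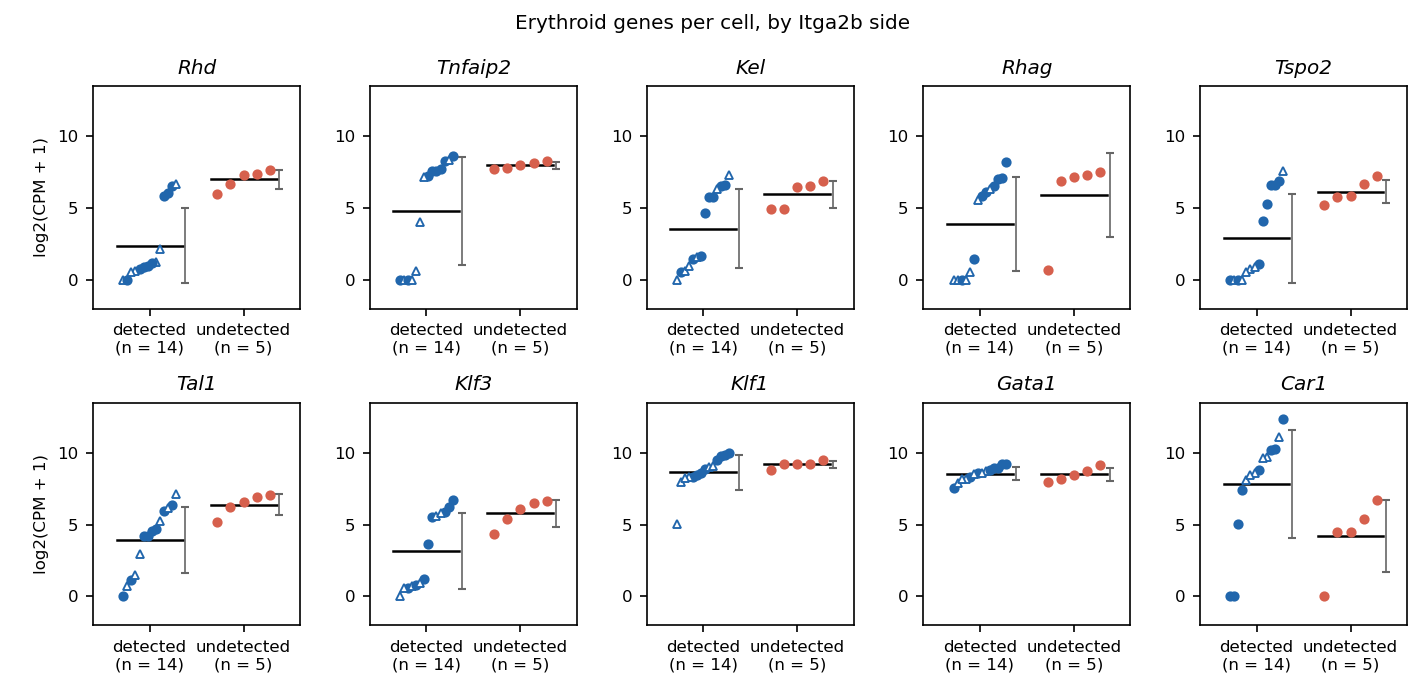
Level of 10 erythroid genes in each kept cell as log2(CPM + 1), drawn as in the plot of megakaryocyte genes. Rhd is at 62.8 CPM or more in the 5 undetected cells and detected in 4 of 14 detected-side cells, Gata1 and Klf1 overlap between the sides, and Car1 is higher in most detected cells.

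Car1, carbonic anhydrase 1, was the maturation gene called higher. It ran from 0 to 5252 CPM (median 424) in the detected cells and stood at 21.8, 103, 40.8, 21.4 and 0 CPM in the undetected cells, a difference of 3.62, or 2.55 in Xist-positive cells. Only the detected cells exceeded 103 CPM, and 2 of them had no Car1. Because of Car1 and Apoe, a lipid carrier at 1779 ± 1186 against 716 ± 563 CPM (mean ± SD), the summed CPM of the maturation list was not lower on the detected side, with medians of 5217 and 4240 CPM. Klf1, used to choose the cells, had medians of 424 and 600 CPM. Within the detected side, Itga2b had a rho of −0.62 and an r of −0.47 with Klf1, −0.62 and −0.45 with Rhd, and 0.44 and 0.73 with Car1, over 14 cells. Klf1 and Itga2b were themselves used to choose and split the cells, so their coefficients cannot show a relation apart from that choice. Rhd was positive in 4 of these 14 cells, so most ranks behind its rho come from cells below detection. No conclusion is drawn from the Klf1 and Rhd coefficients.

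Of 24 erythroid transcription factors and signalling genes, 20 passed the filter, with a median of −0.13. Of the 20, 0 were called higher and 2 lower (against 3.98% and 6.40% of all genes compared). Beside Tal1 this was Klf3, a Krüppel-like factor activated by KLF1, at 0 to 106 CPM (median 6.26) against 90.8, 99.2, 19.6, 65.4 and 41.3 CPM, a difference of −2.65, or −1.98 in Xist-positive cells. Epor, the erythropoietin receptor, differed by −0.87, at 0 to 316 CPM (median 140) against 240, 338, 137, 120 and 119 CPM. Of 25 genes of haem synthesis and iron handling, 22 passed, and the median was −0.31. Of the 22, 0 were called higher and 2 lower (against the same 3.98% and 6.40%). The 2 were Abcb10, a mitochondrial transporter, at −2.36 and Ireb2, an iron sensor, at −2.08. They differed by −1.92 and −1.49 in the omission of the cell that moved each most, and Abcb10 by −1.75 in Xist-positive cells. Urod, an enzyme of haem synthesis, was present in every kept cell. It ran from 72.4 to 490 CPM (median 340) against 412, 639, 828, 592 and 391 CPM, a difference of −1.0.

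Of 30 early progenitor and stem cell genes, 18 passed, and the median was 0.72. Of the 18, 3 were called higher and 2 lower (against 3.98% and 6.40% of all genes compared). Muc13, a mucin of the cell surface, ran from 1.96 to 560 CPM (median 155) against 29.2, 0, 56.5, 0 and 124 CPM, a difference of 3.23. Zfp36l2, an RNA-binding protein that promotes mRNA decay, ran from 2.07 to 95 CPM (median 38.6) against 6.22, 6.56, 0.785, 0.595 and 4.86 CPM, a difference of 2.70. Cd48, a surface protein of multipotent progenitors, differed by 2.48, or 1.67 without cell 11 or 15 and 1.57 in Xist-positive cells. These 3 were above 0 in every detected cell, although Cd48 reached 5 counts in 11 of 14 detected and 3 of 5 undetected cells. Muc13 and Zfp36l2 kept their calls in Xist-positive cells. Bmi1, a Polycomb protein, and Nr3c1, the glucocorticoid receptor, were lower at −2.29 and −2.07, and neither held without every single cell (−1.78 and −1.71 at the least). In Xist-positive cells they differed by −1.88 and −1.46. Kit, the CD117 antigen, differed by 0.59 and Cd34 had no cell with 5 counts.

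Genes of other lineages were mostly below the filter, and the summed levels of some lists, not all, were higher in the detected cells. The medians of the sums were 981 against 511 CPM for the myeloid, 75.4 against 0.622 CPM for the lymphoid and 55.2 against 3.11 CPM for the mast cell and basophil list. They were 119 against 78.5 CPM for the macrophage, 17.6 against 18.2 CPM for the hepatocyte and 17.6 against 46.0 CPM for the endothelial and stromal list. No detected cell held more than 2 lymphoid genes at 5 counts, and the lymphoid sum was mostly Il2rg, described below. Of 26 myeloid genes, 8 passed and 1 was called higher (against 3.98% of all genes compared). This was Coro1a, an actin regulator of leukocytes, at 3.38, while Spi1, the gene of PU.1, differed by −1.35 and Mpo, myeloperoxidase, by 1.22. The median of the 8 was 0.22, or −0.33 in Xist-positive cells. Elane, Ctsg and Csf1r had no kept cell with 5 counts. Other myeloid genes were present on both sides: Cst7 in 8 of 14 and 3 of 5 cells, Mpo in 6 of 14 and 1 of 5, and Prtn3 in 5 of 14 and 2 of 5. Of 16 lymphoid genes 1 passed, Il2rg, the common cytokine receptor chain, which ran from 0 to 299 CPM (median 75) with 10 of 14 positive against 0.622, 0, 0, 0 and 0 CPM, a difference of 4.75. Cd3e, a defining T cell gene, had no cell with 5 counts. Single genes passed in the mast cell and basophil list (Slc18a2, 1.07) and the macrophage list (Ctsb, 0.39), 3 in the hepatocyte list (median 0.34) and 0 in the endothelial and stromal list, and none of these was called. Cpa3, a mast cell protease, was in 3 of 14 and 0 of 5 cells, Alb, the hepatocyte product albumin, in 6 of 14 and 2 of 5, and summed hepatocyte genes reached 1789 CPM in cell 10 of the detected side and at most 63.4 CPM in the undetected cells. The part of such transcripts in the differences was not tested.

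Ribosome and oxidative phosphorylation genes held no call, and the cell cycle lists held 1 to 4 calls each, where 3.98% of all genes compared were called higher and 6.40% lower. None of 24 genes of ribosome assembly and translation and none of 22 of oxidative phosphorylation was called, with medians of −0.24 and −0.09. Of 25 S phase genes 1 was called, Ung, a DNA repair glycosylase, at −2.32 (−1.94 without cell 12, −1.44 in Xist-positive cells), and the median was −0.28. Of 25 G2 and M phase genes compared, Aurka and Nusap1, of the spindle, were higher at 2.01 and 2.14 (1.48 and 1.78 at the least with a cell left out), and Plk1 and Anln, of mitotic entry and cytokinesis, lower at −2.47 and −3.51, with a median of −0.39. In the Xist-positive cells Aurka and Nusap1 differed by 1.9 and 1.70. There 0 genes of this list were called higher and 3 lower (against 4.63% and 7.87% of all genes compared). Among 18 cell cycle regulators that included endomitosis genes, 13 passed and the E cyclins were lower, Ccne1 at −2.65 and Ccne2 at −2.30 (−1.95 without cell 3), with a median of −0.01. In the Xist-positive cells Ccne1 differed by −1.60 and the median was −1.03. Ccne1 ran from 0 to 636 CPM (median 75.2) against 208, 477, 382, 463 and 32.2 CPM.

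**Figure D4:**
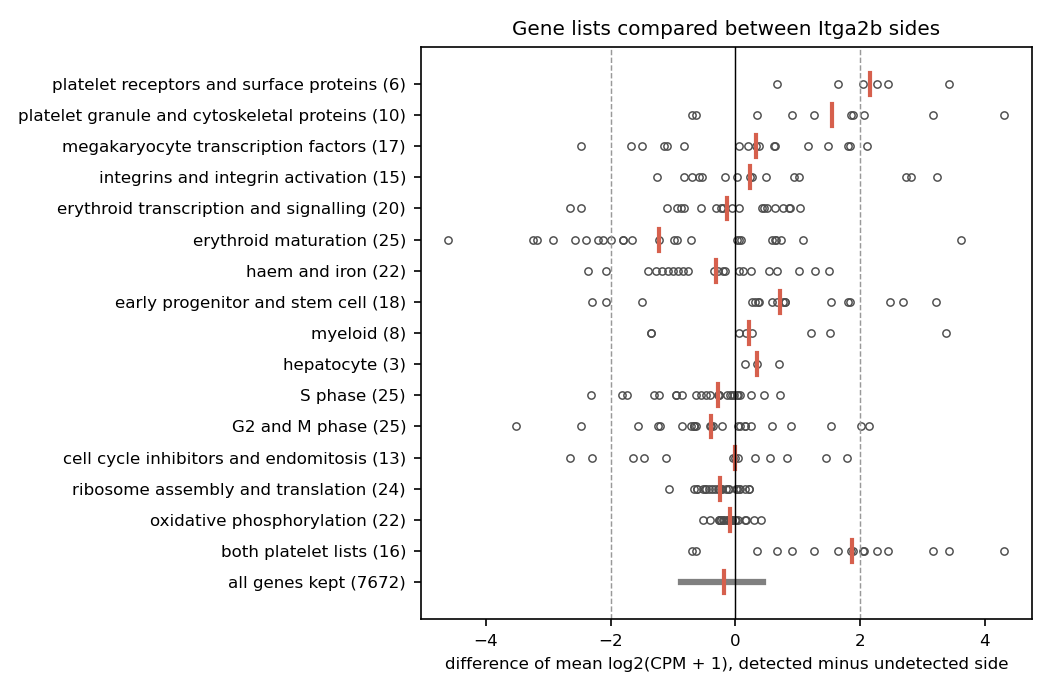
Difference of mean log2(CPM + 1), detected minus undetected cells, for each gene of a list that passed the filter (circles; their number in parentheses) and the list median (thick mark). Dashed lines mark the call at 2 and −2, and the grey bar spans the middle 50% of all 7672 genes. The platelet lists have medians of 2.17 and 1.56, the maturation list −1.23, and the ribosome and oxidative phosphorylation lists lie near 0.

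The genes with the largest differences were for the most part not lineage genes. Crot, a carnitine transferase of peroxisomes, was highest at 5.09: it ran from 0.488 to 207 CPM (median 64.5) in the detected cells, 13 of 14 positive, and stood at 1.24, 0, 1.57, 0 and 0.607 CPM in the undetected cells. After Il2rg came Pnrc1, a nuclear receptor coregulator, at 4.43, present in 13 of 14 and 1 of 5 cells. Cog7, a subunit of the Golgi tethering complex, at 4.34 was at 0 in all 5 undetected cells and ran from 0 to 195 CPM with 10 of 14 positive. Rgs18 was the fifth. The remaining genes among the 12 largest were Eps15l1, of endocytosis, at 4.21, Eya3, a phosphatase and coactivator, at 4.03, Galk2 at 3.97, Rcn2, a calcium-binding protein, at 3.97, Dennd6a at 3.96, Golph3l, of the Golgi, at 3.91 and Abcg1, a cholesterol exporter, at 3.88. All 12 were called in Xist-positive cells as well, and all but Dennd6a were called under every processing choice tried. These 12 were picked as the largest differences among genes that stayed called without any single cell. The Xist-positive comparison reuses 8 of the 14 detected cells and the same 5 undetected cells. Crot, Il2rg, Cog7 and Galk2 reached 5 counts in 0 of 5 undetected cells, so they passed the filter through the detected side alone. The calls of the 12 genes in these settings are therefore no independent support.

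On the lower side Atp7b, a copper exporter, had the largest difference, −5.16. It ran from 0 to 11.7 CPM (median 0) in the detected cells, 2 of 14 positive, and stood at 91.4, 89.7, 18.1, 65.4 and 51.0 CPM in the undetected cells, so the sides did not overlap. Angptl4, a secreted regulator of lipoprotein lipase, followed at −5.10, with 4 of 14 and 5 of 5 positive and 39.2, 210, 447, 69.0 and 138 CPM in the undetected cells. Zadh2, a reductase, was at −4.95 with 3 of 14 positive, Taf4b, a TFIID subunit, at −4.58 with 2 of 14, and Xrcc5, the Ku80 DNA repair protein, at −4.47 with 5 of 14, each present in 5 of 5 undetected cells. Rhd was the fourth in this order.

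The other genes without overlap were more abundant and differed by less. Dap, a death-associated protein, was the gene wholly above, at 57.4 to 236 CPM (median 83.8) against 0.622, 40.8, 27.5, 45.8 and 48.0 CPM, a difference of 2.19, or 1.26 without cell 7. Phb2, a prohibitin of the inner mitochondrial membrane, lay wholly below at 402 to 910 CPM (median 746) against 974, 1295, 1332, 1226 and 964 CPM, a difference of −0.78. Pbdc1 did so at 0 to 293 CPM (median 210) against 318, 368, 326, 423 and 468 CPM, a difference of −1.38. For these 3 genes the nearest cells of the sides were close, and with 1 cell left out in turn 1 to 3 genes lay wholly above and 3 to 6 wholly below.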

How the data were processed

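Polyadenylated RNA of 24 single cells was sequenced without strand information, per the labels' protocols. The deposited values are raw counts of reads per gene, 1 column per cell, made with STAR 2.4 and featureCounts on GRCm38, per the submitters' processing notes. The sources used here do not give counting options. Of 49585 rows, 49326 identifiers matched a symbol in GENCODE M21.

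Counts were divided by the cell's total to give CPM, and log2(CPM + 1) was averaged over the cells of each side. Genes needed 5 counts, taken as detected, in at least 6 kept cells. The cells are 1 group with no embryo named, so a side is 1 sample and neither p-values nor standard errors were computed. SDs, ranges and exact binomial intervals cover these cells, and intervals and floors of 3 counts cover counting error only, since PCR copies without molecular identifiers are not independent molecules. No doublet caller was run on 24 sorted cells, and no 2 columns were identical. Reads of overlapping genes, such as Xist and its antisense partner, cannot be told apart.

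The cells, the 20 gene lists, the threshold and the naming rule were chosen with earlier results of these data known. The rule named a fixed set of megakaryocyte genes, every platelet list gene compared, the 12 genes of largest difference in each direction that stayed called without any single cell, up to 8 non-overlapping genes a direction and the 3 largest differences of each other list, passing over predicted models, clones and pseudogenes. Other genes were named after their values were seen. Some genes that the rule names, or that are counted in a list, are not reported here. The difference script was tested on simulated data. Alternatives changed the scaling (edgeR 4.0.16 TMM factors, DESeq2 1.42.0 size factors), pseudocount, filters, thresholds, depth and the cells used. Another added the plate column as a term, inferred from the letter and number in each cell's label, since no label names a plate. Python 3.11.15, pandas 2.3.3, numpy 2.4.6, scipy 1.17.1, matplotlib 3.10.9 and R 4.3.3 were used.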

Additional observations from a re-analysis of the deposited data

Results flagged for a closer look

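Over 23 values of the 5 undetected cells, 3 had a single cell far from the other 4, by a distance rule that picks out about 1 in 20 such groups by chance. The rule only points to cells and is no test of the sides. The summed haem and iron genes stood at 5020 CPM in cell 20, against 6115 to 6487 CPM in the others. The summed myeloid genes stood at 1879 CPM in cell 20, against 198 to 514 CPM. The summed lymphoid genes stood at 8.63 CPM in cell 14, against 0 to 1.82 CPM. No explanation was tested.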

How the results depend on the processing

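No paired analysis was possible because all cells belong to 1 group. The 305 genes higher became 23 with a pseudocount of 10 CPM, 196 with 5 counts required in 10 cells, 611 with medians and 494 with Itga2b at 1 or more counts. The 491 genes lower became 23, 316 and 1016 under the first 3 of these and 283 with all 24 cells. Wholly higher genes, 1 here, numbered 2 with DESeq2 size factors, 2 with Itga2b at 1 or more counts, 0 with all 24 cells and 7 with only Xist-positive cells. Wholly lower genes, 3 here, numbered 7 with Itga2b at 1 or more counts, 0 with all 24 cells and 8 with only Xist-positive cells. Leaving out 1 cell gave 280 to 434 genes higher, 451 to 600 lower, 1 to 3 wholly higher (most without cell 11 or 20) and 3 to 6 wholly lower (most without cell 7). A limit of 50 CPM for Itga2b gave the same sides. The platelet list median was 1.02 with a pseudocount of 10, 0.99 with no filter on low counts, 0.96 with Itga2b at 1 or more counts and 0.86 with all 24 cells. Of 53 called genes picked by the naming rule, 0 changed sign and 22 stayed called under all 17 other settings and 19 omissions of a cell. Called genes named outside the rule, such as Kel, Tnfaip2, Ctse, Hba-a1, Rhag, Bmi1, Nr3c1 and Aurka, were not part of this count. The 12 largest differences in each direction were named because they stayed called without any single cell. The 19 omissions could therefore not end their calls, and all of the 22 genes but Car1 were among them. Depth limits low genes: the called genes had median mean levels of 35 and 38.7 CPM, against 52.5 CPM over all genes compared. The causes of these shifts were not tested.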

Other observations

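Of the 22 genes picked by the naming rule and called under every setting tried, 12 were higher and 10 lower. With a pseudocount of 10 CPM, which lowers the weight of genes near 0, the difference of Car1 was 3.21, the largest among the 12, followed by 2.74 for Crot and 2.53 for Il2rg. Rgs18, at 2.08, was the platelet list gene among them. Among the 10 lower, the differences were −2.97 for Angptl4, −2.80 for Rhd, −2.69 for Zadh2, −2.56 for Atp7b, −2.51 for Xrcc5, which acts in repair of DNA breaks, −2.39 for Tmem109, −2.30 for Mcfd2, which carries secreted proteins from the endoplasmic reticulum, −2.15 for Irf2bp1, −2.13 for Tmem216 and −2.09 for Taf4b. Rhd was the erythroid list gene among these, while Kel, Tnfaip2, Ctse, Hba-a1 and Rhag were not run under every setting.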
